A study of Mus musculus with 15 samples.

Results

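B2 SINE piRNA loci are the genomic intervals to which piRNAs of mouse testis were mapped and whose repeat label gives the class SINE and the family B2. A locus is 1 interval on 1 strand, so that reads with the same 5′ end and different 3′ ends stand at separate loci. Over all 15 libraries, 65961 of 8128951 loci belonged to the B2 family. Of these, 35406 carried the repeat name B3, 16960 the name B3A and 13595 the name B2. The deposited names hold no suffix, so the subtypes of the B2 name could not be told apart. The other abundant SINE families of the mouse, B1 (listed as Alu) and B4, had 88340 and 78264 loci.

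All 15 libraries were made from testis small RNA of male C57Bl/6 mice aged 8 weeks, cut from a gel at 17 to 40 nt. In the IP set, RNA was incubated with an antibody against pseudouridine (Ψ), and the starting RNA (input), the bound RNA (Ψ-IP) and the unbound RNA (flow-through) were each sequenced in 3 libraries with the Nextflex v3 kit. In the CMC set, 3 libraries of CMC-treated RNA were set against 3 mock libraries, which the titles call untreated, with the NEBNext kit. CMC binds Ψ and stops the reverse transcriptase, so RNA with Ψ is expected to be lost from a CMC library and recovered in a Ψ-IP library. No labels tie the 3 replicates of a group to separate animals, so p-values measure the spread between these libraries, which may be technical. The testis was taken whole, and fewer cells of a type cannot be told apart from less RNA per cell.

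B2 elements are short retrotransposons of rodents that descend from a tRNA gene, are transcribed by RNA polymerase III and borrow the L1 machinery to move. piRNAs are the small RNAs of germ cells that load into PIWI proteins and guide them to transposons and other transcripts. In adult testis most of them are cut from long single-stranded transcripts of a limited number of genomic clusters, in which repeats such as B2 are embedded in either orientation. piRNAs usually start with a U, and where a PIWI protein cuts a transcript of the opposite strand, the new 5′ end lies 10 nt from that of the guide.

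Sequence could be read only for loci that lie wholly inside an annotated exon (GENCODE vM21 transcripts, GRCm38/mm10), which was the case for 518 of the 4697 B2 loci of 24 to 33 nt with more than 20 counts in a set. One 5′ start recurred among them at separate places in the genome. It is shown here at 4 loci on different chromosomes, 5′ to 3′ on the piRNA's own strand as DNA letters, with the shared letters of the start in capitals.
chr15:103196604-103196632, minus strand, B2, Cbx5 UTR: TGGGAATtgAACtgggggcctttagaaga
chr4:56808518-56808547, plus strand, B2, Fam206a UTR: TGGGAATttAACtcagaacctctggaagaa
chr5:143767856-143767885, plus strand, B3, D130017N08Rik non-coding exon: TGGGAATtgAACcagcagccagtgctgtca
chr10:62659128-62659157, plus strand, B2, opposite to the Stox1 UTR: TGGGAATtgAACtcaggacctttggaagtg

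The start, TGGGAAT followed by any 2 bases and AAC, was searched for on both strands. It was chosen after these sequences were seen and is given without a test. Because it was read from copies of the same repeat family, its counts elsewhere are a description only. They do not show that it is particular to B2 piRNAs. The pattern opened 31 of the 518 B2 loci (5.99%), which share 6 distinct 5′ ends. It opened 0 of 3783 loci of other SINEs, which allows a share of up to 0.0793%, and 0 of 123425 loci outside repeats, which allows up to 0.00243%. Neither the pattern at another position nor its reverse complement was found in the 518 B2 loci, the latter with an upper limit of 0.579%. These limits treat loci as independent and are too tight, because loci share 5′ ends. The distinct ends were 215 for B2, 1288 for other SINEs and 42331 outside repeats. Of 32851 promoter windows from RefSeq (250 bases before to 50 after the gene start), 89 (0.271%) held the pattern on either strand. That count takes any position in the window, unlike the count of starts. The same start was thus found at B2 copies on several chromosomes. Downstream of it the sequences shown under the name B2 stayed largely alike, so the capitals do not mark all that they share. Only the B3 sequence on chr5 clearly differed there.

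Their levels, in CPM (counts scaled to 1000000 of the normalized library size), did not move together. The Cbx5 locus, in the UTR of a gene for a heterochromatin protein, stood at 1.71 ± 0.426 CPM (SD, n = 3 here and for all values with ± SD) in input, 2.33 ± 0.348 in Ψ-IP and 12.5 ± 2.22 in flow-through. The D130017N08Rik locus stood at 3.99 ± 0.546, 0.123 ± 0.178 and 0.483 ± 0.378 CPM in the same order. At the Fam206a locus the means were 3.76 ± 0.297, 0.916 ± 0.719 and 4.45 ± 1.496 CPM. The flow-through level was thus the highest of the 3 at Cbx5, while at D130017N08Rik both fractions were far below the input. The Stox1 locus was rare, at 0.238 ± 0.0667 CPM in mock and 0.232 ± 0.172 in CMC.

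Other abundant loci that have a sequence, shown with the first base in capitals, did not carry that start.
chr11:50941419-50941448, minus strand, B3A, 4933414I15Rik UTR: Ttgtgcagatgctgaaataacctaaaaatc
chr5:113325156-113325184, minus strand, B3, opposite to a Gm43353 exon: Tctgatgctggagttagatggttgtgagc
chr5:113325148-113325176, minus strand, B3, opposite to a Gm43353 exon: Tggagttagatggttgtgagctgccgtgt
chr4:56808443-56808472, plus strand, B2, Fam206a UTR: Tctgcatgtacattcgcatactagaagagg
chr10:62659144-62659172, plus strand, B2, opposite to the Stox1 UTR: Gacctttggaagtgcaggcagtgctctta
The first of these stood at 6.54 ± 0.671 CPM in input and 2.72 ± 0.752 in Ψ-IP. The second stood at 20.7 ± 2.25 CPM in mock and 16.1 ± 1.19 in CMC. The chr5 loci overlap and come from 1 copy. The last locus begins with G, unlike the others.

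Over the 518 loci, T was the first base of 79.7% (95% exact binomial interval 76.0 to 83.1%, which covers counting error only and treats loci as independent although many share an end). For other SINEs the share was 84.9% and outside repeats 84.1%. Counted once per 5′ end, these shares were close together, at 77.7% for B2, 78.9% for other SINEs and 79.1% outside repeats. A stood at position 10 in 50.8% of B2 loci (46.4 to 55.2%), against 34.4% of other SINE loci, 30.2% of loci of other repeats and 27.5% of loci outside repeats. Per 5′ end, the share with A there was 101 of 215 for B2 (47.0%) and 34.7% for other SINEs. A was thus more frequent at that place in B2 loci than in the other loci with a sequence. The shared start itself has A at position 10, so its 31 loci (6 ends) are counted here. The B2 loci with a sequence are only 11.03% of those of this length.

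The most abundant 5′ end with the shared start lay in a non-coding exon on chromosome 18, where sequence is not shown. Its 10 loci of the name B3 summed to 22.01 ± 1.77 CPM in input, 14.3 ± 2.79 in Ψ-IP, 49.7 ± 3.46 in flow-through, 18.1 ± 0.334 in mock and 22.4 ± 1.49 in CMC. The 8 loci at the Cbx5 end summed to 2.29 ± 0.651, 3.76 ± 1.34, 16.9 ± 2.37, 8.90 ± 1.29 and 8.41 ± 2.03 CPM in the same order. At both ends flow-through was above the other groups of the IP set, while Ψ-IP was below input at the first only.

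Counts per library ran from 11575705 to 25063656 in the IP set and from 24154811 to 58399368 in the CMC set, and B2 loci held between 38997 and 192724 of them. Loci with more than 20 counts over a set were tested, which left 3527 B2 loci of 686863 in the IP set and 2945 of 556583 in the CMC set, with 1401 B2 loci in both. The tested loci held 77.7 to 81.1% of the B2 counts of an IP-set library and 86.0 to 88.2% of those of a CMC-set library. B2 counts were concentrated. In the IP set 397 of 43985 B2 loci held 50% of all B2 counts, and in the CMC set 127 of 37243 did, with 10.3% and 17.96% in the 10 most abundant loci.

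B2 made up a small share of the piRNA counts. It was 0.385, 0.385 and 0.377% of all counts in the input libraries and 0.356, 0.337 and 0.345% in the Ψ-IP libraries. The flow-through libraries stood at 0.466, 0.424 and 0.453%. The 3 groups of the IP set did not overlap, with Ψ-IP lowest and flow-through highest. In the CMC set the share was 0.323, 0.330 and 0.329% in mock and 0.319, 0.333 and 0.343% in CMC, so the CMC values lay on both sides of the mock values. The name B3 took the largest share of the family, with 53.9 ± 1.079% of B2 counts in input, 51.4 ± 1.02% in Ψ-IP, 52.9 ± 0.921% in flow-through, 44.2 ± 0.892% in mock and 46.5 ± 0.934% in CMC. B3A took 32.6 to 38.6% and the name B2 13.6 to 17.2% (group means).

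**Figure D1:**
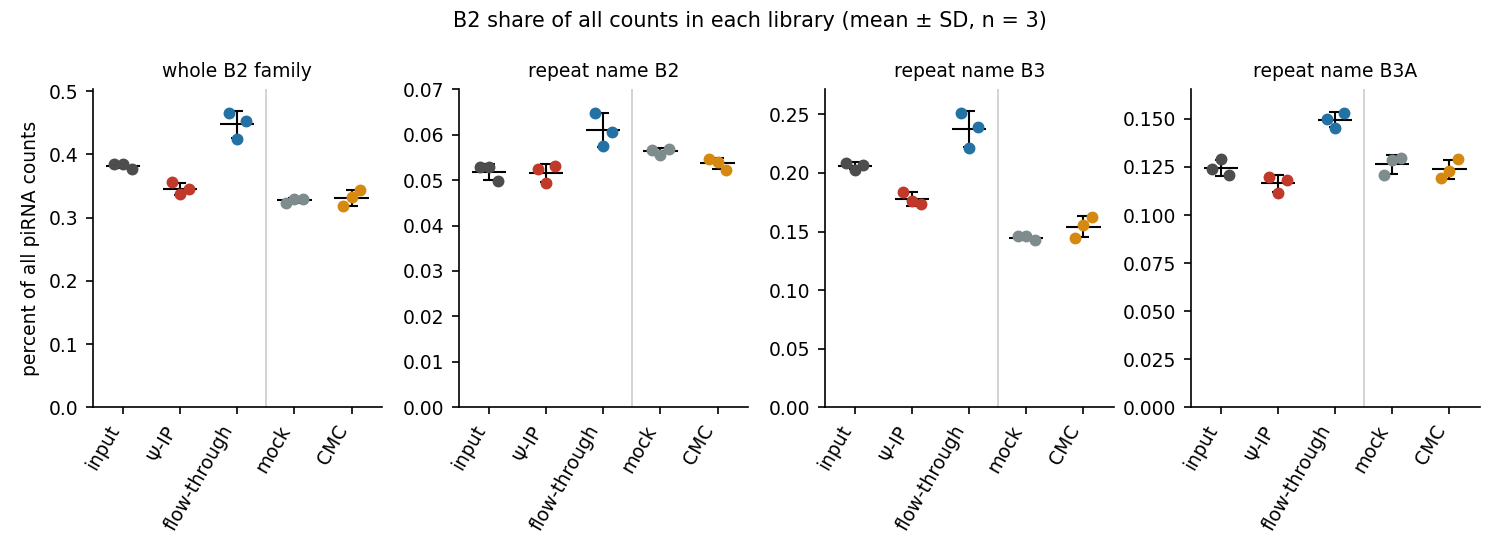
Percent of all piRNA counts (y axis) held by the whole B2 family and by each of its 3 repeat names in the 15 libraries. Points are libraries, black bars the group mean ± SD (n = 3), and the grey line separates the IP set from the CMC set. The Ψ-IP points of the whole family lie between 0.337 and 0.356%, below all input points (0.377 to 0.385%) and all flow-through points (0.424 to 0.466%), while mock and CMC points overlap.

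Whether B2 piRNAs as a family were bound by the antibody was asked by comparing the summed B2 counts of Ψ-IP with those of input and of flow-through. On the CPM scale, which uses TMM factors, the sums were 4221, 4104 and 4120 in input, 3173, 3184 and 3522 in Ψ-IP and 4305, 4316 and 4387 in flow-through. All Ψ-IP libraries lay below all libraries of the other groups. The family sum fell by 0.33 ± 0.08 (SE, here and below for log2 fold changes) on the log2 scale against input (adjusted p = 0.000803, edgeR quasi-likelihood test with Benjamini-Hochberg adjustment over 34 repeat families). Against flow-through, with the same Ψ-IP libraries, it fell by 0.40 ± 0.09 (adjusted p = 0.00101). At the threshold used throughout, an adjusted p under 0.01, 32.4% of the 34 families were lower and 0% higher in Ψ-IP than in input, and 17.6% were lower and 20.6% higher than in flow-through. B2 ranked 20 and 26 from the highest of the 34. Set against the median repeat family, which itself changed by -0.28, B2 differed from input by -0.033 only (adjusted p = 0.839). The call against input was also lost without input replicate 1 (-0.320, adjusted p = 0.0136), input replicate 3 (-0.338, 0.0102) or Ψ-IP replicate 2 (-0.310, 0.0161), and with DESeq2 size factors (-0.181, 0.0118) or with TMM factors of the family sums (-0.106, 0.0117). The call against flow-through was lost without Ψ-IP replicate 2 (-0.374, 0.0187) and with the DESeq2 Wald test (-0.230, 0.0144), and with loci of 24 to 33 nt alone the fall was -0.167 (0.0094).

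By repeat name, B3 fell by 0.40 ± 0.08 against input (adjusted p = 0.000108) and by 0.44 ± 0.09 against flow-through (0.000604), from 2282, 2164 and 2260 CPM in input to 1640, 1663 and 1770 CPM in Ψ-IP. B3A fell by 0.28 ± 0.09 (0.00775) and 0.39 ± 0.09 (0.00288). The name B2 did not pass the threshold, at -0.19 ± 0.09 (0.0896) and -0.26 ± 0.10 (0.0368). Over all 546 repeat names 4.76% were higher and 19.6% lower in Ψ-IP than in input, and over 547 names 17% were higher and 17% lower than in flow-through. The B3A call against input was lost with other scalings (-0.132 with DESeq2 size factors, -0.097 with total counts only), with the Wald test (-0.132), with loci over 20 counts only (-0.238) and without any 1 of the 3 input libraries (-0.279, -0.270 and -0.301), Ψ-IP replicate 1 (-0.255) or 2 (-0.248). That against flow-through was lost without flow-through replicate 2 (-0.370) or 3 (-0.367) or Ψ-IP replicate 2 (-0.350), and with DESeq2 size factors (-0.216, adjusted p = 0.0126) or the Wald test (-0.216, 0.0118). B3 passed in both comparisons with DESeq2 size factors, at -0.25 and -0.274. With loci of 24 to 33 nt only, neither name passed against flow-through (B3 -0.209, B3A -0.163).

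Flow-through and input, compared after the data were seen, differed by 0.06 ± 0.05 (adjusted p = 0.225), and neither the family nor any of its 3 names passed, where 11.8% of families were higher and 35.3% lower and 9.69% of names higher and 24.1% lower. With total counts as the scale the difference was 0.227 and passed, and with loci of 24 to 33 nt only it was -0.116.

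With CMC the family did not change detectably. Sums were 3291, 3375 and 3401 CPM in mock and 3218, 3143 and 3348 CPM in CMC, a difference of -0.05 ± 0.03 (adjusted p = 0.27) that turned to 0.018 with library totals in place of TMM. None of the 3 names passed the edgeR test, against 0.935% of 535 names higher and 4.3% lower and, of 34 families, 0% higher and 5.88% lower. The name B2 was lowest, at -0.14 ± 0.04 (adjusted p = 0.0471, unadjusted p = 0.00652), and B3A had an unadjusted p of 0.0441. Leaving out CMC replicate 1 brought the name B2 past the threshold (-0.177).

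**Figure D2:**
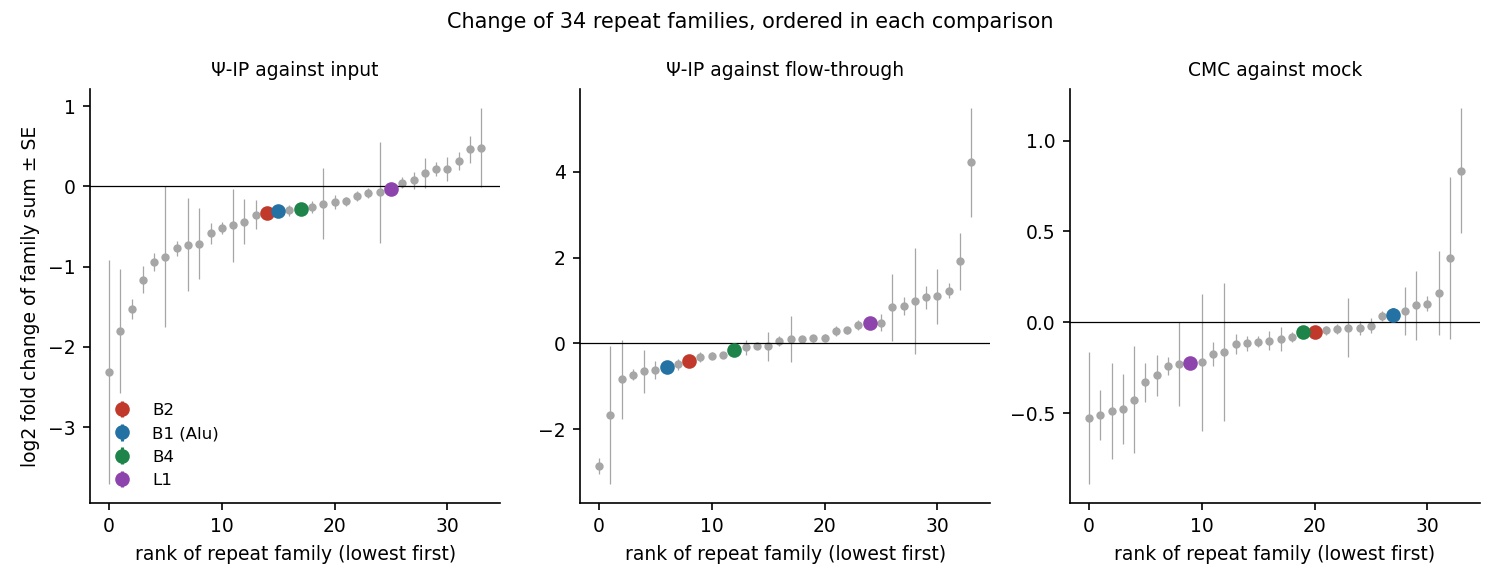
Log2 fold change ± SE (y axis) of the summed counts of 34 repeat families, ordered in each of 3 panels from lowest to highest, with B2, B1 (Alu), B4 and L1 in colour. B2 lies at -0.33 against input and -0.40 against flow-through, where B1 lies at -0.30 and -0.54 and B4 at -0.28 and -0.15, and at -0.05 with CMC, while L1 lies at -0.03, 0.47 and -0.23.

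Ratios within a library do not depend on scaling, so B2 was also set against other repeats library by library. Against L1, the family that supplies its enzymes, the log2 ratio of counts was -2.96, -2.99 and -2.96 in input, -3.22, -3.36 and -3.25 in Ψ-IP and -2.29, -2.51 and -2.43 in flow-through. The 3 groups did not overlap. Ψ-IP was 0.30 lower than input and 0.86 lower than flow-through on this scale. Against B1 the ratio differed by only -0.03 between Ψ-IP and input (exact permutation p = 0.3) but was 0.15 higher in Ψ-IP than in flow-through (higher in 9 of 9 pairs of libraries). Against B4 the differences were -0.06 (exact permutation p = 0.3) and -0.25 (lower in 9 of 9 pairs). With CMC, B2 was 0.09 lower relative to B1 and 0.17 higher relative to L1 (9 of 9 pairs each), and 0.001 different relative to B4 (exact permutation p = 1). Those that did not overlap had a two-sided exact permutation p of 0.1, the smallest that 3 against 3 libraries allow, and 0.133 after adjustment over 20 ratios.

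Single loci were asked next. Of 3526 B2 loci tested between Ψ-IP and input, 91 were higher in Ψ-IP and 327 lower (2.58 and 9.27%), where over all 686543 loci 4.95% were higher and 11.2% lower. Of B1 loci 2.62% were higher and 8.73% lower, and of B4 loci 3.73% and 10.6%. The median log2 fold change was -0.23 for B2 loci and -0.15 for all loci. The former was also -0.23 when the 87 B2 loci at 0 in all Ψ-IP libraries and the 10 at 0 in all input libraries were set to a bound of 3 counts over the group. With libraries scaled by their totals, the median was -0.06 for B2 loci and 0.03 for all loci. On that scale 131 B2 loci were higher and 262 lower (3.72 and 7.43%, against 6.91 and 9.19% of all loci). By name, 197 of 1884 B3 loci (10.5%), 103 of 1172 B3A loci (8.79%) and 27 of 470 B2 loci (5.75%) were lower. The called loci were abundant ones, with a median of 15.3 counts per library against 4.83 for the tested loci. Without input replicate 1 there were 212 calls in all and without input replicate 3 255.

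Against flow-through, 115 of 3525 B2 loci were higher in Ψ-IP and 188 lower (3.26 and 5.33%), with 7.3% of all loci higher and 5.58% lower. The median was -0.52 for B2 loci (also with 88 loci at 0 in each group set to that bound) and -0.29 for all loci, and the same for L1 was 0.38 with 12.5% of its loci higher. More of the B2 calls were lower than higher, as among B1 loci (2.01% higher and 7.165% lower) and B4 loci (4.20 and 5.51%). The reverse held over all loci. With loci of 24 to 33 nt only, 144 of 3359 B2 loci were higher and 123 lower (4.29 and 3.66%), where over all 652487 loci of these lengths 9.05% were higher and 4.11% lower. Without Ψ-IP replicate 2 the calls numbered 178, and without Ψ-IP replicate 3 193. With CMC, 11 of 2945 B2 loci were higher than in mock and 27 lower (0.374 and 0.917%), where over all loci 1.07% were higher and 0.667% lower. The 27 lower loci were 14 of B3A, 11 of the name B2 and 2 of B3, and the 11 higher loci were 9 of B3 and 2 of B3A. Without mock replicate 2 the 38 calls were 21.

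The called loci came from few places. The 327 loci lower in Ψ-IP than in input shared 191 distinct 5′ ends, and the 91 higher loci 64. Loci of the same repeat name and strand at most 50 bp apart were joined to a stretch, meant to stand for about 1 copy of the element. The stretches named below ran from 53 to 423 nt, so a stretch need not be 1 copy. Of 87 stretches with a called locus, 30 held both higher and lower loci, and of 72 against flow-through 21 did. With CMC all called loci lay at 20 distinct ends in 11 stretches, none of which held both directions. When whole stretches were tested, 8 of 543 B2 stretches were higher in Ψ-IP than in input and 67 lower, against 2.58% higher and 11% lower of 6003 stretches of all repeats. Against flow-through 16 were higher and 54 lower (6.53% and 10.3% of all stretches), and with CMC 1 of 504 was higher and 4 lower (0.405% and 1.28%). With libraries scaled by their totals, 15 B2 stretches were higher than in input and 46 lower (2.76 and 8.47%, against 4.93 and 7.23% of all stretches). With DESeq2 size factors 22 were higher than in flow-through and 32 lower (4.05 and 5.89%), where over all stretches more were higher than lower (8.39 and 7.54%). The count of calls against input was 45 without input replicate 1, and that against flow-through 44 to 46 without any 1 of the 3 Ψ-IP libraries.

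The most abundant B2 stretches of the IP set lay on chromosomes 14, 9, 5 and 15. The B3A stretch chr14:24103378-24103580 (plus strand, outside annotated genes) stood at 216, 218 and 204 CPM in input, 191, 208 and 256 CPM in Ψ-IP and 325, 314 and 342 CPM in flow-through. Only its flow-through libraries stood apart, and Ψ-IP differed from flow-through by -0.58 ± 0.13 (adjusted p = 0.000802), a call lost without Ψ-IP replicate 1 (-0.494) and with loci of 24 to 33 nt only (-0.376). The B3 stretch chr9:67696642-67696846 (minus strand) fell from 271, 250 and 295 CPM in input to 166, 180 and 173 CPM in Ψ-IP, by 0.65 ± 0.11 (5.46e-06), and stood at 203, 197 and 234 CPM in flow-through (adjusted p = 0.106). The B3 stretch chr5:149826380-149826583 (minus strand) went the other way, from 186, 190 and 183 CPM in input to 240, 253 and 259 CPM in Ψ-IP. Its rise of 0.43 ± 0.11 (adjusted p = 0.00202) was lost without input replicate 1 (0.427) or 3 (0.415), and against flow-through it was 0.42 ± 0.13 (0.0114).

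At the abundant B3A stretch chr9:54248407-54248613, on the minus strand within Cyp19a1, the aromatase gene, no comparison passed the threshold without the pairing of replicates. It stood at 180 ± 4.68 CPM in input, 189.4, 162.3 and 201.3 in the Ψ-IP libraries and 152 ± 19.3 in flow-through, and with CMC it differed by -0.30 (adjusted p = 0.0136, and 0.00756 with replicate numbers as pairs). The B3A stretch chr15:59255003-59255158 (minus strand) was the most abundant of the CMC set and among the 5 most abundant of the IP set. It stood at 217, 212 and 204 CPM in input, 75.5, 80.4 and 85.6 CPM in Ψ-IP and 147, 183 and 180 CPM in flow-through. No Ψ-IP library reached the lowest of the other 6. The changes were -1.39 ± 0.11 against input (7.06e-14) and -1.08 ± 0.14 against flow-through (3.71e-08), and with CMC it stayed at 372 ± 15.4 CPM against 381 ± 14.5 in mock.

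The other abundant stretches of the CMC set lay opposite to Cyp19a1 and Stox1 and on chromosome 17. The B3A stretch chr9:54251318-54251465 (plus strand) stood at 242, 258 and 268 CPM in mock and 242, 208 and 231 CPM in CMC (-0.17 ± 0.07, adjusted p = 0.201). The neighbouring B3 stretch chr9:54250913-54251290 stood at 199 ± 9.04 and 194 ± 13.6 CPM, and the B3 stretch chr10:62679829-62680251, opposite to the transcription factor gene Stox1, at 151 ± 5.51 and 160 ± 3.67 CPM. None of these 3 passed with CMC. In Ψ-IP against input both chr9 stretches fell, by 0.45 ± 0.12 (0.0035) and 0.48 ± 0.11 (0.000932), with calls that were lost when libraries were scaled by their totals (-0.258 and -0.300). They were lost as well without input replicate 2 or 3 for the first (-0.331 and -0.480) and without input replicate 1 or 3 for the second (-0.483 and -0.491).

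At the 3 stretches with the largest rises against input, flow-through was also above input. The B3A stretch chr2:92586835-92586914 (plus strand) rose from 6.554, 6.763 and 6.997 CPM in input to 15.3, 15.4 and 17.8 CPM in Ψ-IP, by 1.26 ± 0.15 (5.6e-09), and stood at 30.9, 23.6 and 22.1 CPM in flow-through. Both fractions of the IP were above the RNA they came from. The B3 stretch chr10:62678944-62679082 (plus strand, opposite to Stox1) showed the same order, with 6.38 ± 0.771, 11.6 ± 2.08 and 29.03 ± 0.371 CPM. Ψ-IP differed by 0.88 ± 0.16 from input (5.45e-05) and by -1.31 ± 0.17 from flow-through (3.71e-08). The B3 stretch chr14:24118178-24118338 rose from 6.16 ± 1.19 to 12.6 ± 1.82 CPM (1.05 ± 0.17, 2.39e-06) and stood at 11.8 ± 1.77 CPM in flow-through.

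The largest fall against input was at chr12:98449575-98449774 (B3, plus strand, opposite to the potassium channel gene Kcnk10), from 51.0, 35.6 and 65.3 CPM to 11.6, 16.1 and 10.6 CPM in Ψ-IP (-2.01 ± 0.16, 9.42e-14). In input 91.5% of its counts were 16 nt long and 6.21% were of 24 to 33 nt, against 35.2% of the latter in Ψ-IP. With loci of 24 to 33 nt only, the difference was 0.388, the opposite direction. The next largest fall was at another B3 stretch. The stretch chr7:73133103-73133286 (plus strand) fell from 27.7, 23.2 and 25.9 CPM in input to 6.49, 5.72 and 8.45 CPM in Ψ-IP, with 34.7, 29.1 and 30.4 CPM in flow-through. Its fall was 1.87 ± 0.15 against input (1.45e-13) and 2.17 ± 0.18 against flow-through (8e-13), and input and flow-through lay together far above Ψ-IP. The B3 stretch chr15:78665783-78665835 fell from 10.27 ± 1.374 to 2.94 ± 0.830 CPM (-1.83 ± 0.19, 2.06e-10).

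All 3 of the largest stretch rises against flow-through carried the name B2. They were chr4:123833921-123834073 within 1700121C08Rik (15.9 ± 2.09 CPM in flow-through, 45.3 ± 11.8 in Ψ-IP, 1.51 ± 0.17, 1.75e-09), chr9:54211271-54211445 within Cyp19a1 and chr15:79947648-79947788 opposite to the Polycomb gene Cbx7. None of them passed against input. At Cyp19a1 the values were 2.88, 3.68 and 1.90 CPM in flow-through, 6.87, 8.25 and 6.49 CPM in Ψ-IP and 5.94, 5.99 and 5.44 CPM in input, so all Ψ-IP libraries lay above the others. The rise there was 1.33 ± 0.25 against flow-through (4.66e-05) and 0.30 ± 0.17 against input (0.24). At Cbx7 it was 1.07 ± 0.24 (0.000697) against flow-through and lost without Ψ-IP replicate 2 (0.898).

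Besides the chr7 stretch, the largest falls against flow-through were in UTRs. The B2 stretch chr15:103196564-103196693 in the Cbx5 UTR, which holds the first sequence shown, stood at 22.7, 17.2 and 18.6 CPM in flow-through and 5.95, 3.43 and 4.27 CPM in Ψ-IP (-2.11 ± 0.20, 5.83e-11). Its input values, 3.41, 2.13 and 3.18 CPM, were the lowest. The B3 stretch chr5:129985608-129985790 in the UTR of Vkorc1l1, a relative of the vitamin K cycle enzyme, had 4.46 ± 1.09 CPM in flow-through and 1.12 ± 0.615 in Ψ-IP (-1.92 ± 0.34, 1.83e-05).

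In the fit without pairing, 5 stretches changed with CMC. With the replicate block, which takes the numbers of CMC and mock libraries as pairs, the same 5 and another 2 were called, the B3 stretch chr5:113325073-113325275 (-0.29, adjusted p = 0.00686) and the Cyp19a1 stretch chr9:54248407-54248613 (-0.30, 0.00756). The B2 stretch chr9:54211271-54211445, on the minus strand within Cyp19a1, fell most, from 32.1, 38.6 and 34.6 CPM in mock to 14.8, 17.8 and 16.3 CPM in CMC (-1.12 ± 0.09, 2.28e-08). It is the same stretch that was higher in Ψ-IP than in flow-through. The B3A stretch chr15:59267882-59268052 fell from 87.6, 100.2 and 89.9 CPM to 53.0, 61.3 and 61.5 CPM (-0.66 ± 0.08, 6.69e-06), with no change in Ψ-IP past the threshold (0.06 ± 0.12 against input and 0.25 ± 0.14 against flow-through). In each of these the CMC libraries lay below all mock libraries, which the rule for naming them required.

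The B2 stretch chr17:66221795-66221977 fell from 148.5, 149.8 and 162.7 CPM to 135, 103.5 and 112 CPM (-0.39 ± 0.08, 0.00453) and was 0.55 ± 0.15 higher in Ψ-IP than in flow-through (0.0038). The B3 stretch chr4:94281080-94281271 in Gm12648 fell by 0.42 ± 0.08 (0.00272), and the B3 stretch chr5:113323818-113323995 rose by 0.50 ± 0.09 (0.00228). The last was also lower in Ψ-IP than in input (-0.43 ± 0.11, 0.00359) and than in flow-through (-1.23 ± 0.13, 1.21e-09). These 3 CMC calls were each lost without mock replicate 2 (-0.411, -0.371 and 0.522) or mock replicate 3 (-0.350, -0.448 and 0.456). They were lost as well without CMC replicate 2 for chr17 and chr5 (-0.314 and 0.488), and without CMC replicate 3 for chr4 and chr5 (-0.370 and 0.392). The chr17 calls against flow-through depended on flow-through replicates 1 and 2 (0.456 and 0.582) and Ψ-IP replicates 2 and 3 (0.427 and 0.576). The chr5 fall against input was lost without any 1 of the 3 input libraries (-0.438, -0.396 and -0.456) or Ψ-IP replicate 2 (-0.408).

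Neighbouring loci could differ. Opposite to Stox1, the B3 locus chr10:62663082-62663113 (32 nt), among the most abundant B2 loci of the CMC set at 76.99 ± 11.04 CPM in mock and 78.6 ± 30.4 in CMC, stood at 10.7, 9.60 and 11.5 CPM in input and 0.763, 0.572 and 0.598 CPM in Ψ-IP. It fell by 4.04 ± 0.33 (6.68e-31) against input and 2.82 ± 0.44 (1e-08) against flow-through. A short way downstream, the locus chr10:62663144-62663173 stood at 17.2, 13.6 and 20.2 CPM in input and 18.6, 16.7 and 17.5 CPM in Ψ-IP. Its levels in both groups overlapped, and it was 1.501 ± 0.298 higher in Ψ-IP than in flow-through (1.17e-05). With CMC it rose from 2.37, 2.38 and 1.93 CPM in mock to 4.83, 5.12 and 4.71 CPM (1.13 ± 0.16, 5.46e-06), so that it was higher in Ψ-IP than in flow-through and also higher with CMC.

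Loci that overlap the latter moved in both experiments. The locus chr10:62663141-62663170 fell from 12.32, 10.5 and 12.03 CPM in input to 1.68, 1.06 and 1.62 CPM in Ψ-IP (-2.97 ± 0.29, 1.21e-21) and rose from 0.943, 0.893 and 0.722 CPM in mock to 3.18, 2.62 and 2.93 CPM in CMC (1.78 ± 0.20, 2.27e-08). Its neighbours chr10:62663141-62663169 and chr10:62663144-62663170 did the same (-4.64 and -1.88 against input, 1.52 and 1.80 with CMC), as did chr6:127812425-127812449 (-2.49 and 1.03). These 4 were named after their values were seen. The first 2 kept both calls without any 1 library. The locus chr10:62663144-62663170 lost a call without any 1 of the input libraries, Ψ-IP replicate 1 or 2, mock replicate 3 or CMC replicate 1 or 3 (1.41 without mock replicate 3 and -1.56 without Ψ-IP replicate 2), and chr6 without mock replicate 1 or 2 or CMC replicate 2 or 3 (0.88 to 1.04). They were all of the B2 loci lower in Ψ-IP than in input and higher with CMC, of 155 and 10 loci with each call among the 1401 tested in both sets (2.58% and 40.0%), where over all loci 570 were 1.44% and 20.5% of the lists.

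RNA with Ψ would be expected to be higher in Ψ-IP and lower with CMC, and with input as the reference 3 B2 loci were. Over the 1401 loci these were 6.82% of the 44 higher in Ψ-IP and 14.3% of the 21 lower with CMC, and over all loci 805 were 3.83% and 24.7%. The B3A locus chr15:59267921-59267949 stood at 1.05, 1.42 and 0.405 CPM in input, 2.29, 3.51 and 2.78 CPM in Ψ-IP, 16.8, 19.9 and 17.6 CPM in mock and 8.98, 7.78 and 8.77 CPM in CMC (1.57 ± 0.36, 0.000176, and -1.09 ± 0.13, 1.36e-07). The locus chr15:59267921-59267946 of the same strand and 3′ end had lower counts (1, 2 and 4 in input, 10, 8 and 16 in Ψ-IP) and changed by 2.39 ± 0.72 (0.00606) and -1.05 ± 0.17 (4.99e-05). The B2 locus chr17:66221854-66221884 stood at 3.495, 3.671 and 2.602 CPM in input, 6.95, 7.59 and 7.90 CPM in Ψ-IP, 29.3, 28.8 and 32.6 CPM in mock and 23.2, 15.9 and 19.6 CPM in CMC (1.20 ± 0.27, 0.000147, and -0.62 ± 0.13, 0.00192). These loci were chosen for their calls in both experiments, in which the groups did not overlap. Each lost a call when 1 library was left out. The first lost that in Ψ-IP without input replicate 3 (1.22, adjusted p = 0.025), and the second without any 1 input library (1.90, 2.39 and 3.02) or Ψ-IP replicate 3 (2.40). The third lost it without input replicate 3 (1.06, 0.0118) and its CMC call without mock replicate 2 or 3 (-0.66 and -0.56) or CMC replicate 2 (-0.49). They come from 2 places, and 0 B2 loci were higher in both comparisons or lower in both.

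With flow-through as the reference, which brings in the same Ψ-IP and CMC-set libraries again, 6 B2 loci were higher in Ψ-IP and lower with CMC. They were 10.9% of the 55 B2 loci higher in Ψ-IP and 28.6% of the 21 lower with CMC, where over all loci 1670 were 6.25% and 51.2% of the lists. The chr17 locus above was 1 of them (1.73 ± 0.35, 1.79e-05). The others, chosen after their values were seen unless named by size below, were chr15:59267924-59267954 (2.67 ± 0.52, 6.24e-06, and -0.64 ± 0.15, 0.00882 with CMC), chr9:54248581-54248610 and 3 overlapping loci within Cyp19a1. The latter, chr9:54211412-54211441, chr9:54211416-54211444 and chr9:54211416-54211445, had 0 counts in every flow-through library and 2 to 19 counts in the Ψ-IP libraries. Each of the 6 lost a call when 1 library was left out. For chr15 it was the CMC call without any 1 of the 6 libraries (-0.72 to -0.55), and for chr9:54248581-54248610 the Ψ-IP call without Ψ-IP replicate 2 (2.05) or flow-through replicate 3 (2.10). Of the 3 within Cyp19a1, the first lost the Ψ-IP call without any 1 of the 6 libraries, the second without Ψ-IP replicate 2 or flow-through replicate 2, and the third without Ψ-IP replicate 2 (adjusted p from 0.01 to 0.0989). The second also lost its CMC call without mock replicate 2 (-0.88). Another 2 loci, chr10:62663144-62663173 and chr10:62663144-62663174, were higher in Ψ-IP than in flow-through and higher with CMC, and 1 locus, chr6:127812425-127812449, was lower and higher (-2.001 ± 0.62, 0.00972, and 1.03 ± 0.25, 0.00957). The chr6 locus lost its call against flow-through without Ψ-IP replicate 1 (-1.69) or 2 (-1.83) or flow-through replicate 2 (-2.15) or 3 (-1.76).

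Among loci called with an average of 20 counts or more and 1 direction in 9 of 9 pairs of libraries, the largest rises against input were at 3 B3A loci on chromosome 2, chr2:92597389-92597418 (2.30 ± 0.44) and the pair chr2:92586870-92586899 and chr2:92586870-92586900 (2.10 ± 0.34 and 2.06 ± 0.37), with adjusted p from 2.09e-08 to 4.96e-06. The largest falls were chr5:143767856-143767885, whose sequence is shown (103, 53 and 70 counts in input and 0, 4 and 1 in Ψ-IP, -5.17 ± 0.50, 5.4e-22), chr10:62663141-62663169 and chr9:54252695-54252725 (-4.46 ± 0.49, 3e-17). The first rested on few Ψ-IP counts and was -6.88 without Ψ-IP replicate 2, and the chr9 locus was -5.21 without Ψ-IP replicate 1. Against flow-through the rises were led by chr15:78649769-78649798, with 2, 1 and 2 counts in flow-through and 44, 46 and 89 in Ψ-IP (5.24 ± 0.61, 1.83e-15). A B3 locus on chromosome 18 had 0, 0 and 4 counts in flow-through and 14, 43 and 65 in Ψ-IP (4.92 ± 0.69, 1.1e-10). Its fitted value rested on 1 flow-through library and was 8.48 without flow-through replicate 3, the only one with counts. A locus of 25 nt with the 5′ end of the chr17 locus, chr17:66221854-66221878, had 0, 11 and 2 counts in flow-through and 14, 40 and 61 in Ψ-IP (3.24 ± 0.59, 1.05e-06), with 5.24 without flow-through replicate 2. The falls were led by chr15:59255042-59255067 (-4.53 ± 0.73, 2.23e-08), chr6:127837236-127837275 (-4.04 ± 0.46, 4.27e-16) and chr15:59255038-59255067 (-3.30 ± 0.41, 2.03e-13). The chr6 locus is 40 nt long and had 0 counts in the CMC set, where no count of B2 or of any other loci was at a length over 33 nt.

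The 3 most abundant B2 loci of the IP set lay in the stretches on chromosomes 14, 9 and 10 described above. The locus chr14:24103481-24103511 stood at 59.3, 60.2 and 50.1 CPM in input, 52.8, 57.7 and 99.7 CPM in Ψ-IP and 115, 112 and 130.1 CPM in flow-through (0.31 ± 0.21, adjusted p = 0.275, and -0.76 ± 0.24, 0.0133). The locus chr9:67696681-67696711 stood at 75.95 ± 2.26 CPM in input and 62.3 ± 5.39 in Ψ-IP (-0.29 ± 0.21, adjusted p = 0.324). The locus chr10:62680181-62680211 (31 nt), also the second most abundant of the CMC set, stood at 50.6, 44.4 and 47.6 CPM in input, 26.3, 19.4 and 35.8 CPM in Ψ-IP and 58.0, 47.1 and 58.2 CPM in flow-through. It fell by 0.80 ± 0.22 (0.00179) and 1.00 ± 0.26 (0.00145), calls lost without input replicate 1 (-0.757) or 3 (-0.803), flow-through replicate 3 (-0.950) and Ψ-IP replicate 2 (-0.612 and -0.809), and the second also without Ψ-IP replicate 1 (-0.976). Only the first of the 3 loci had a Ψ-IP library above all input libraries.

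Next in abundance, the B3 locus chr5:149826520-149826549 rose from 26.7, 29.5 and 29.6 CPM in input to 61.5, 66.1 and 65.9 CPM in Ψ-IP (1.18 ± 0.21, 1.2e-06), and chr5:113332481-113332510 fell from 79.7, 65.8 and 55.9 CPM in flow-through to 24.2, 16.9 and 18.3 CPM in Ψ-IP (-1.76 ± 0.26, 1.72e-09). The first of these stood at 34.6, 30.3 and 27.1 CPM in flow-through, so its Ψ-IP libraries lay above all others. In the CMC set the most abundant locus, chr9:54251342-54251371 (B3A, plus strand, Cyp19a1), stood at 133, 144 and 152 CPM in mock and 126, 102 and 120 CPM in CMC, lower in 9 of 9 pairs and not past the threshold (-0.30 ± 0.11, 0.166). The abundant B3A locus chr15:59255101-59255131 fell from 51.4, 46.9 and 47.8 CPM in input to 12.59, 10.86 and 10.03 CPM in Ψ-IP (-2.13 ± 0.23, 4.1e-18) and stood at 83.1 ± 6.26 CPM in mock and 80.9 ± 3.11 in CMC. Its shorter neighbour with the same 5′ end, chr15:59255105-59255131, fell from 10.7, 11.01 and 9.95 CPM in input to 3.21, 3.76 and 5.42 CPM in Ψ-IP (-1.33 ± 0.26, 7.09e-06) and stood at 45.03 ± 1.14 CPM in mock and 47.9 ± 4.92 in CMC. The largest locus falls with CMC were chr15:59267922-59267946 (-1.54 ± 0.30, 0.00082), chr9:54211416-54211445 (-1.49 ± 0.19, 5.06e-07) and chr9:54248581-54248610 (-1.40 ± 0.24, 9.21e-05). The first of these was lost without mock replicate 2 (-1.347). The second had 0 counts in each flow-through library and 4, 19 and 17 counts in Ψ-IP.

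B2 piRNAs were gathered in few genomic regions. When all loci of the files at most 10 kb apart were merged, 953 regions resulted, of which 476 held a B2 locus. The 6 regions with the most B2 counts held 52.0% of the B2 counts of the IP set and 66.8% of those of the CMC set, but 21.3% and 19.7% of all counts. They are named here by a gene in them and were chr9:54197079-54288869 (Cyp19a1), chr10:62650498-62708988 (Stox1), chr15:59242085-59315744 (Sqle), chr9:67687025-67773986 (C2cd4b), chr6:127772148-127853957 (4921513H07Rik) and chr17:66147673-66240013 (Ddx11). B2 gave 5.40% of the counts of the Stox1 region and between 0.395 and 1.85% of those of the others.

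The B2 counts of the Cyp19a1 region ran against its main strand. Only 6.80% of all counts of that region lay on the plus strand, but 57.9% of its B2 counts in the IP set and 80.1% in the CMC set did. B2 made up 13.4% and 24.4% of the plus-strand counts and 0.732% and 0.432% of the minus-strand counts. Most of the plus-strand B2 counts came from the neighbouring stretches chr9:54250913-54251290 and chr9:54251318-54251465. These stood at 163 and 106 CPM in input and at 199 and 256 CPM in mock. B2 on both strands of the region stood at 633 CPM in input and 649 CPM in mock. Over all regions, 73.6% of B2 counts of the IP set and 71.2% of the CMC set lay on the strand that held most of the counts other than B2 in their region, close to B4 (76.2% and 71.9%) and below B1 (89.1% and 90.8%) and L1 (90.8% and 93.2%). These differences were not tested. In regions where 90% or more of the counts other than B2 came from 1 strand, which held 61.97% and 58.97% of B2 counts, 82.2% of B2 counts of the IP set lay on that strand and 68.6% of the CMC set, against 98.2% and 97.5% for B1, 98.5% and 98.2% for B4 and 98.1% and 98.5% for L1. The Cyp19a1 region held most of the B2 counts on the other strand. Without it, which was tried after seeing the data, B2 stood at 93.95% and 91.5%, B1 at 99.1% and 99.0%, B4 at 98.5% and 98.2% and L1 at 98.1% and 98.5%. In the Stox1 region, by contrast, 99.5% and 99.2% of the B2 counts lay on the plus strand with the rest of the region.

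Region by region, the Ψ-IP level of B2 could differ from that of its surroundings. In the Sqle region, named for squalene epoxidase, B2 stood at 361 ± 7.69 CPM in input, 214 ± 11.1 in Ψ-IP and 330 ± 21.5 in flow-through, and the log2 ratio of B2 to the rest of the region was 0.69 lower in Ψ-IP than in input and 0.68 lower than in flow-through. Much of this came from 1 stretch. Without the stretch chr15:59255003-59255158 described above, left out after seeing the data, B2 of the region stood at 150 ± 3.23 CPM in input, 134 ± 7.44 in Ψ-IP and 160 ± 1.85 in flow-through, and the ratio was 0.10 lower than in input (lower in 8 of 9 pairs of libraries, exact permutation p = 0.2) and 0.32 lower than in flow-through (9 of 9 pairs). With CMC the ratio differed by -0.09 with the stretch and by -0.34 without it. The C2cd4b region showed -0.30 and -0.46 and the 4921513H07Rik region -0.35 and -0.89. All 9 pairs of libraries went that way in each of these 6 differences. In the Stox1 and Ddx11 regions the differences from input and flow-through ran from -0.08 to 0.02, and in the Cyp19a1 region they were -0.06 and 0.06. In all other regions together the ratio was 0.05 lower than in input and 0.46 lower than in flow-through. With CMC the differences ran from -0.15 (Ddx11) to 0.18 (C2cd4b). With all stretches and where groups did not overlap the exact permutation p was 0.1 and 0.21 after adjustment over 21 ratios, so none could pass.

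**Figure D3:**
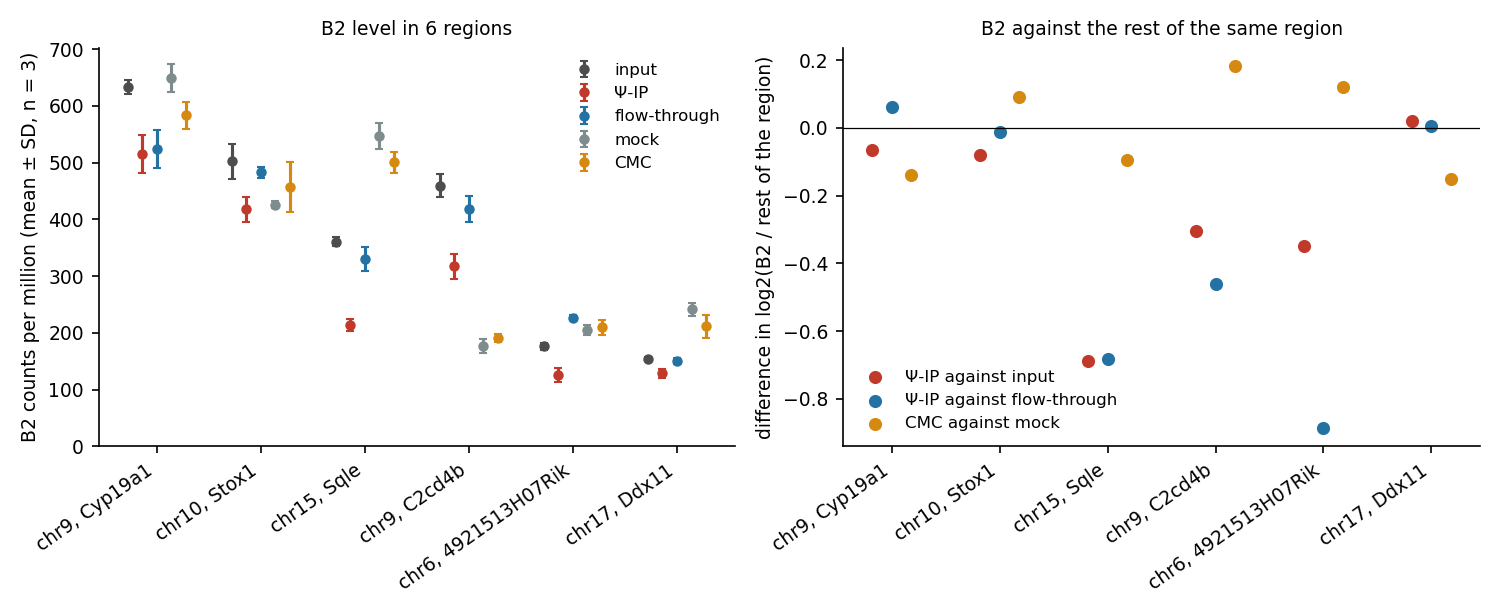
Left, B2 CPM (y axis, mean ± SD, n = 3) in the 6 regions with the most B2 counts by group. Right, difference between groups in the log2 ratio of B2 counts to the other counts of the same region, where 0 means that B2 moved with its surroundings. The ratio is lowest in the Sqle region against input (-0.69) and in the 4921513H07Rik region against flow-through (-0.89), and lies near 0 in the Stox1 and Ddx11 regions for both.

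Loci of 24 to 33 nt on opposite strands were compared by the overlap of their 5′ ends. An overlap of 10 nt had the most pairs of B2 5′ ends, 347 in the IP set against a median of 274 (196 to 292) at the other overlaps up to 25 nt. The CMC set had 285 such pairs against 211 (125 to 252). It held 21.5% and 19.5% of the summed products of counts of the pairs. In each of the 15 libraries taken alone the pairs at 10 nt were 1.47 to 2.33 times the median of the other overlaps, on 28 to 113 pairs at 10 nt. The ratio was 2.0 to 2.14 in the flow-through libraries, above all input libraries (1.65 to 1.78), and 1.47 to 2.33 in Ψ-IP, on both sides of them. Libraries also differed in the B2 loci they held, 13199 to 17218 in input and 8815 to 10739 in flow-through (all lengths). How this bears on the ratio was not tested, but the pooled ratios given below are lower than in any single library. All mock libraries (1.71 to 1.83) lay above all CMC libraries (1.58 to 1.69). In both sets 10 nt was also the most frequent overlap in B1, B4, L1 and ERVK loci. With the libraries of a set pooled, the ratio to the median was 1.27 for B2 in the IP set, below all 4 of these families (1.35 to 1.63), and 1.35 in the CMC set, below all but B4 (1.34 to 1.59). How reads that map to several copies were counted is not given in the sources used here.

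**Figure D4:**
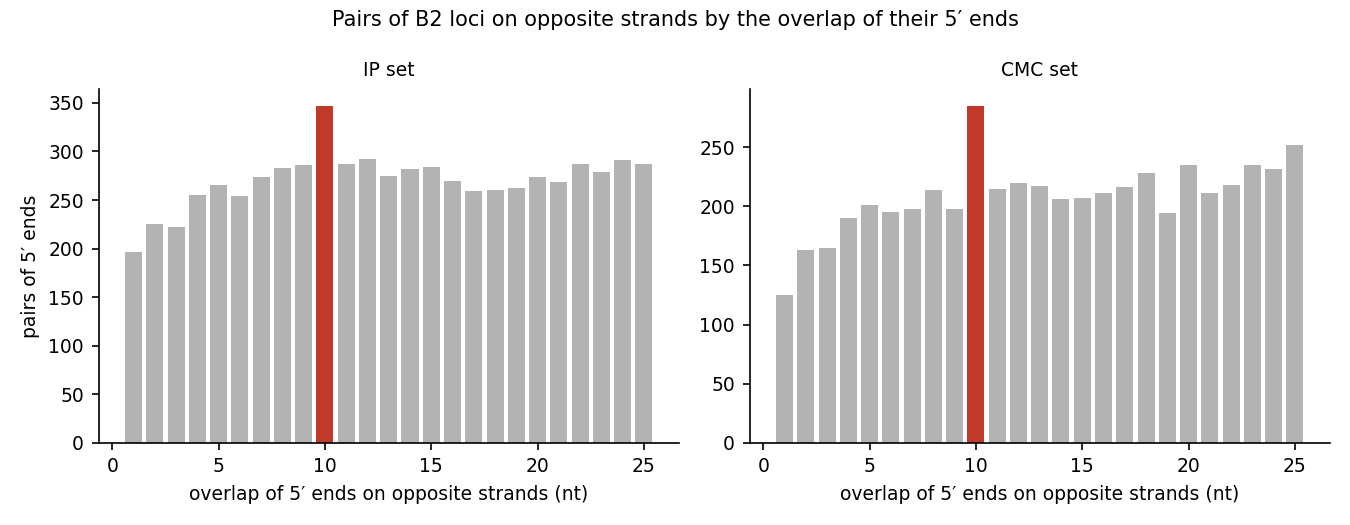
Number of pairs of B2 5′ ends on opposite strands (y axis) at each overlap from 1 to 25 nt (x axis) in the IP set (9 libraries) and the CMC set (6 libraries), with 10 nt in red. The bar at 10 nt is the highest in both panels, at 347 and 285 pairs.

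B2 piRNAs were mostly of the lengths known for adult testis. Each of the 15 libraries peaked at 30 nt, with 26.4 ± 0.146% of B2 counts in input, 27.4 ± 0.0718% in Ψ-IP, 25.5 ± 0.606% in flow-through, 22.6 ± 0.428% in mock and 21.7 ± 0.726% in CMC. Loci of 29 to 31 nt, the range of piRNAs bound by MIWI, held 64.2 ± 0.450% of B2 counts in input, 67.2 ± 0.957% in Ψ-IP and 64.3 ± 1.01% in flow-through. Ψ-IP was 2.97 points above input and 2.89 above flow-through, with no overlap (exact permutation p = 0.1 each, the smallest possible). For all loci the same differences were 1.87 and 3.38 points. With CMC the share went from 59.3 ± 0.718% to 57.6 ± 1.84% (exact permutation p = 0.2), a difference of -1.73 points that was -0.741 without CMC replicate 3 and -2.56 without CMC replicate 1. Within loci of 24 to 33 nt the differences of Ψ-IP were 1.26 points from input and 1.68 from flow-through (exact permutation p = 0.1 and 0.3).

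Calls were also counted by length. Of 106 tested B2 loci of 34 to 44 nt, 0 were higher in Ψ-IP than in input and 21 lower (19.8%), where over all loci of these lengths 1.63% were higher and 10.6% lower. Of 60 B2 loci of 23 nt or less, 0 were higher and 8 lower (13.3%, against 1.54% and 12.03% of all such loci), with a median log2 fold change of -0.20, as at 29 to 31 nt. At 29 to 31 nt 65 of 2055 were higher and 191 lower (3.16 and 9.29%, against 6.23 and 11.9%), and at 32 to 33 nt 17 of 301 higher and 23 lower (5.65 and 7.64%, against 5.40 and 8.41%). Against flow-through 12 of the 106 longest B2 loci were lower (11.3%, against 10.1% of all such loci) and 1 of the 60 shortest (1.67%, against 2.91%). No test of these differences from all loci was made. Loci of 34 to 44 nt held 2.78 ± 0.293% of B2 counts in input, 1.83 ± 0.131% in Ψ-IP and 3.51 ± 0.415% in flow-through, without overlap between the groups. At 16 nt input stood apart. Loci of 16 nt held 1.19 ± 0.377% of B2 counts in input and 0.296 ± 0.131% in Ψ-IP. Most of these counts in input came from the chr12 stretch described above. It had 1168, 553 and 1129 counts in input, 91.5% of them at 16 nt. In other repeats 16 nt held 0.0455% of input counts.

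**Figure D5:**
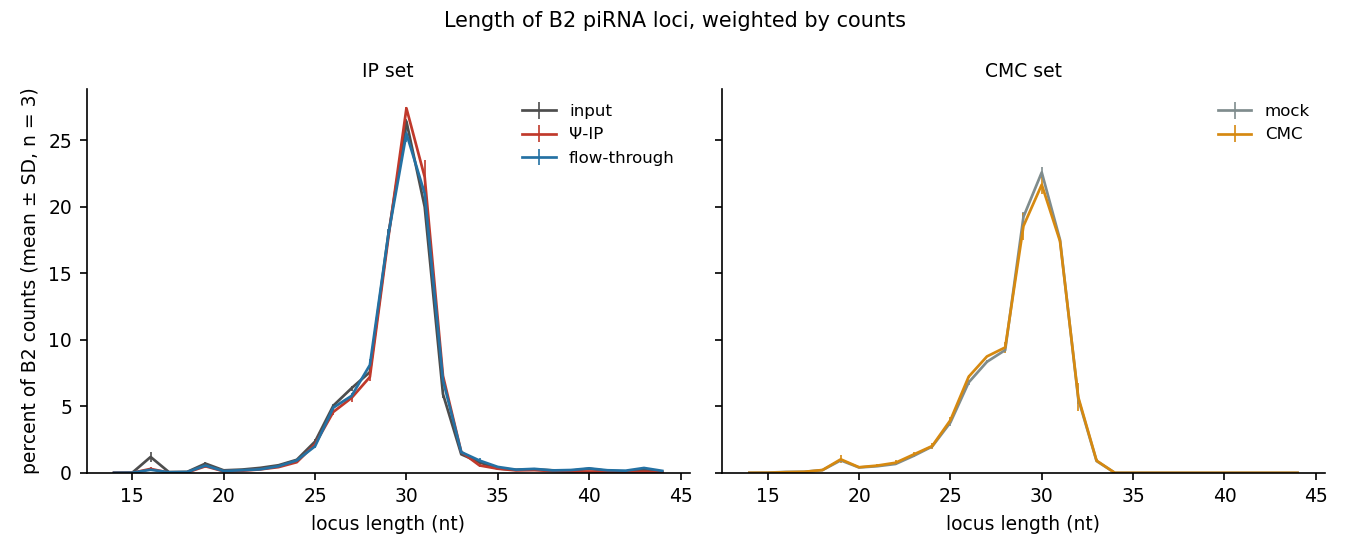
Percent of B2 counts (y axis, mean ± SD, n = 3) at each locus length (x axis, nt) in the groups of the IP set and the CMC set. All groups peak at 30 nt (21.7 to 27.4%). The IP-set input has a small peak at 16 nt (1.19%), mostly from the chr12 stretch described above. The CMC set has no counts above 33 nt, for B2 or for any other loci.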

How the data were processed

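Small RNA of mouse testis was sequenced in 15 libraries of 5 groups. Per the study's methods, the authors trimmed reads with Cutadapt, kept reads of 14 to 44 nt, took out tRNA fragments, mapped the rest to mm10 with Bowtie 2 allowing up to 3 mismatches, and assigned them to UCSC repeats and piRNA clusters with BEDTools. The deposited files hold raw counts per genomic interval, with no normalization. The handling of reads with several matches is not given in the sources used here. Coordinates are counted from 0 in the files and printed from 1.

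B2 loci were taken from the repeat label. The members, lists and tests were chosen with earlier results of these data known. Depth ran from 11575705 to 58399368 counts per library, which sets the precision of each locus. Counts were tested with edgeR 4.0.16 (quasi-likelihood, R 4.3.3) over all loci with more than 20 counts in a set, with TMM factors from those loci and Benjamini-Hochberg adjustment at 0.01. CPM are counts per 1000000 of total times TMM factor. Stretches, repeat names and 34 families were fitted as sums, the latter 2 over all loci. Values within libraries were compared with exact permutation tests, two-sided (Python 3.11.15, SciPy 1.17.1). Scripts were tested on simulated data.

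Named were the 5 loci and 5 stretches with the highest mean CPM in each set, and, per comparison, the 3 largest rises and 3 largest falls among calls averaging 20 counts or more per locus (50 per stretch) and 1 direction in 9 of 9 pairs of libraries. The 6 regions with the most B2 counts, and loci higher in Ψ-IP and lower with CMC if 5 or fewer, were also named. DESeq2 1.42.0, other scalings, filters, a replicate block and leaving out each library were alternatives. Replicate numbers were taken as pairs for CMC and mock, where libraries of 1 number deviated together (r of 0.124, 0.147 and 0.293, each across 87755 loci), although not every library correlated best with its own number. No column was left without a sample.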

Additional observations from a re-analysis of the deposited data

How the results depend on the processing

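The number of B2 loci called was 418 against input, 303 against flow-through and 38 with CMC. It became 696, 600 and 62 at an adjusted p under 0.05, 208, 196 and 25 with the DESeq2 Wald test, and 271 and 194 in the IP comparisons with no minimum count. With an average of at least 10 counts it was 268 against input. Without 1 library it ran from 212 to 432, from 178 to 262 and from 21 to 35. The 75, 70 and 5 stretches called became 45 to 72, 44 to 64 and 2 to 5 without 1 library, and with CMC 14 at 0.05 and 3 with total counts. Of the 3 repeat names, 2 were called against input and 1 was with DESeq2 size factors, total counts, loci over 20 counts or the Wald test, and 1 to 3 without 1 library. Against flow-through 2 were called, 1 with DESeq2 size factors or the Wald test, 0 with 24 to 33 nt, and 1 to 3 without 1 library. With CMC 0 were called, and 0 to 1 without 1 library. The cause was not tested for any of these beyond the fewer samples or loci that an alternative holds.

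The family sum against input (-0.333) was not called with DESeq2 size factors (-0.181), TMM over family sums (-0.106) or the median family at 0 (-0.033), and ran from -0.384 to -0.307 without 1 library. It was called at a smaller -0.145 with total counts. That against flow-through (-0.397) was not called with the Wald test (-0.230), was called at -0.167 with 24 to 33 nt (adjusted p = 0.0094), and ran from -0.448 to -0.371. With CMC (-0.052) the sign turned with total counts (0.018), TMM over families (0.061) and the median family at 0 (0.035), with -0.077 to -0.032 without 1 library. Flow-through against input, compared after seeing the data, was 0.064 (adjusted p = 0.225) and called at 0.227, 0.366 and 0.410 under the same 3, turned to -0.116 with 24 to 33 nt, and ran from 0.055 to 0.077 without 1 library. By name, the last turned to -0.131 (B2), -0.122 (B3) and -0.102 (B3A) with 24 to 33 nt, and B3 with CMC to -0.017 without CMC replicate 3 (highest 0.041 without 1 library). The chr12 stretch turned to 0.388 with 24 to 33 nt. The scaling by the median family was also chosen after seeing the data.

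The replicate block, with numbers as pairs, gave 12 B2 loci higher and 29 lower with CMC, 1 and 6 stretches, and a family sum of -0.053. In the IP comparisons the numbers gave no pairs (lowest correlation -0.0333 against input and -0.0411 against flow-through). There the block gave 71 higher and 271 lower loci against input and 85 and 143 against flow-through, and both family sums were called at -0.335 and -0.399. Of 501 refits of named loci 25 lost the call and 476 did not change it, and of 417 refits of named stretches 51 lost it and 1 turned. The length shares kept their direction in all 30 alternatives, with values from -2.56 to -0.741 points with CMC without 1 library. Low depth limits single loci, which had a median of 4.83 counts per library against input.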
